A study of Mus musculus with 6 samples.

Results

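The hippocampal expression of 10 immediate early genes, Fos, Fosb, Junb, Egr1, Egr2, Egr4, Arc, Npas4, Nr4a1 and Dusp1, was examined in 6 RNA-seq libraries. These were 10 of the 37315 genes counted, and all 10 were among the 14539 genes with a mean of at least 1 CPM, the read count scaled to the library total, over the 6 libraries. The genes were chosen on the values described here, since they varied together across libraries and between controls, and since Npas4, Arc and Dusp1 differed widely within a pair. Their levels and ratios are therefore given as a description, without a test.

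All mice were 4 weeks old and of the C57BL/6J strain, and each of the 6 groups had 1 library. In the first pair, mice with the genotype Prrc2a flox/flox (f/f) were set beside Prrc2a flox/flox mice that also carried nestin-cre (f/f;Nestin-Cre), a recombinase active in neural progenitors and the cells derived from them. The f/f library of this pair is called the Nestin-Cre control and that of the second pair the Olig2-Cre control. In the second pair, f/f mice were set beside f/f mice carrying Olig2-cre (f/f;Olig2-Cre), a recombinase active in the oligodendroglial lineage. In the third pair, WT mice were set beside mice with an Fto transgene (Fto Tg). The protein Prrc2a reads the m6A mark of RNA (N6-methyladenosine), which Fto erases, and the pairs asked how a loss of the reader or an excess of the eraser changes the transcriptome. The floxed alleles were shared by both libraries of the first pair and both of the second. According to the study, the Cre drivers were heterozygous, Olig2-Cre is driven from the Olig2 gene itself and lowers its dosage, and the Fto transgene was delivered by lentivirus under a ubiquitin C promoter that is not limited to a cell type. Mice with a Cre driver and no deletion were not analysed here, so the driver and the deletion cannot be told apart. The sources used here did not say whether tissue of several mice was pooled, nor how mice were handled or at what hour tissue was taken.

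Total counts per library ranged from 18616540 to 35482589, and 3 counts, the smallest amount taken as detectable, were 0.0845 to 0.161 CPM. Prrc2a had 184 CPM in f/f;Nestin-Cre and 434 CPM in its control, or 274 and 402 CPM with TMM scaling. By library total, 55.9% of all genes tested were at least 1.5-fold lower in that pair. In the Olig2-Cre pair Prrc2a had 346 CPM in f/f;Olig2-Cre and 389 CPM in its control. Whole tissue was counted there and not the lineage alone, and the part of this in the difference was not tested. Fto had 354 CPM in Fto Tg and 158 CPM in WT. Markers of neurons and of dentate granule cells were detected in every library, with sums of 5712 to 6683 CPM for the 8 neuronal genes and 105 to 117 CPM for Prox1. The f/f;Nestin-Cre library stood apart from the other 5, and its neuronal markers moved both ways. Slc17a7 had 1407 CPM in the control and 373 CPM with Cre, Tubb3 249 and 76.4 CPM, and C1ql2 48.2 and 14.1 CPM. The CA1 genes Wfs1 and Fibcd1 had 196 and 63.95 CPM and 114 and 18.4 CPM. Higher with Cre were Snap25 (1595 and 2936 CPM), Gad2 (138 and 232 CPM), Rbfox3 (281 and 374 CPM), Map2 (1071 and 1350 CPM) and the granule cell gene Dsp (47.2 and 70.4 CPM). Of the 8 neuronal genes, 3 were at least 1.5-fold lower and 2 higher. Their median log2 ratio was 0.12, against -0.73 for all genes. Mitochondrial genes held 26.2% of its counts against 7.97% to 8.86% elsewhere, and the GC content of its transcripts, weighted by counts, was 45.7% against 48.5% to 49.2%. The part of its composition in the values of the 10 genes was not tested. Intervals given below are 95% intervals of counting error only (Wilson for a CPM value, exact for a ratio), because there were no replicates and PCR copies are not independent molecules.

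Immediate early genes are transcribed within minutes of a stimulus, without new protein synthesis. In neurons, calcium entry through synaptic receptors and channels activates kinases such as the MAP kinases and calcium/calmodulin-dependent kinases, which phosphorylate CREB and the partners of serum response factor already bound to these promoters. Their mRNAs are short-lived, so that levels in the hippocampus follow the recent activity of the tissue. Fos, Fosb and Junb encode parts of the AP-1 dimer, the Egr genes encode zinc finger factors, Npas4 and Nr4a1 encode a neuronal bHLH-PAS factor and an orphan nuclear receptor, Arc encodes a capsid-like protein of synapses, and Dusp1 encodes a phosphatase that inactivates MAP kinases. In bulk tissue, fewer cells expressing such a gene and less RNA per cell cannot be told apart.

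The sequences before the start sites were inspected first, because CREB sites are the element shared by activity-dependent promoters. RefSeq windows of 300 bases, from 250 bases before to 50 bases after an annotated start (GRCm38.p6), were found for 8 of the 10 genes, all except Arc and Egr1. The core of the cAMP response element, TGACG on either strand, was present in a window of 8 of these 8 genes, and in 23% of the 27025 genes with a window (20.8% of 32851 windows). The full palindrome TGACGTCA, which contains the core on both strands, was present only for Dusp1 among the 8 genes and in 1.79% of all windows. The CArG box bound by serum response factor was present only for Egr2 (1.63% of windows), and the AP-1 site TGANTCA was found for 0 of the 8 genes (7.81% of windows). These windows are short, and a match of letters is not evidence of binding. The upstream sequences of Fos, Egr4, Nr4a1, Dusp1 and Npas4 are shown because these genes span the range of changes described below. They run 5′ to 3′ on the strand of the gene, with the cAMP response element core, or the palindrome, in capitals (CGTCA is the core read on the opposite strand). Positions are counted backwards from the RefSeq start, the last base before it being -1. The Fos sequence (chr12:85473640-85473889, plus strand) has the core at -129 and -66. The Egr4 sequence (chr6:85513590-85513839, minus strand) has it at -177 and -109. That of Nr4a1 (chr15:101266596-101266845, plus strand) has 4 copies, at -233, -213, -69 and -40. That of Dusp1 (chr17:26508520-26508722, minus strand) has the core at -191 and the palindrome at -143. For Npas4, 30 bases (chr19:4990128-4990157, minus strand) around the cores at -179 and -169 are given, because GENCODE begins Npas4 further upstream and places the whole window in its first exon. The end of the Dusp1 window nearest the start is left out for the same reason.
Fos: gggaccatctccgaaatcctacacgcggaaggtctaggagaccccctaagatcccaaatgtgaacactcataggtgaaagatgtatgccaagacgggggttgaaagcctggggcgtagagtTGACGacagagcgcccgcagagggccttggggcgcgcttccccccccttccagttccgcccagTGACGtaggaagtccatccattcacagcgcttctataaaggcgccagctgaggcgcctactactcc
Egr4: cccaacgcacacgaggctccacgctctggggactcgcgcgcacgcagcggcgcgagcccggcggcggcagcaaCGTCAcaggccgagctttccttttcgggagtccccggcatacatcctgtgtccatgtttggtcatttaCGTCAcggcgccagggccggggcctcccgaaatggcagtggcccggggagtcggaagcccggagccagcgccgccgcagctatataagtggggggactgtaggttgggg
Nr4a1: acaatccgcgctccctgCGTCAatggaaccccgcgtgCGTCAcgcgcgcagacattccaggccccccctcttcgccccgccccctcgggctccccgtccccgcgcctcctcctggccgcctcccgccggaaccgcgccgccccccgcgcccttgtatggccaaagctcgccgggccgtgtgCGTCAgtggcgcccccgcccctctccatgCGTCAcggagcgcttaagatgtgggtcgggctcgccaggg
Dusp1: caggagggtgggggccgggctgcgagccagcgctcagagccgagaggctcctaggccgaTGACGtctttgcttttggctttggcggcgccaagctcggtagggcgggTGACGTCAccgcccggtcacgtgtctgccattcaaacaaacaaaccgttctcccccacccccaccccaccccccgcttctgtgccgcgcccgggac
Npas4: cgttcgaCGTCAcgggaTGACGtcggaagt

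The AP-1 genes were examined first by role. Fos (ENSMUSG00000021250, chromosome 12, 85473890 to 85477273, plus strand of GRCm38) had 39.0 CPM in the Nestin-Cre control, 28.9 CPM in the Olig2-Cre control and 10.3 CPM in WT. With the alterations it had 11.1 CPM in f/f;Nestin-Cre, 25.6 CPM in f/f;Olig2-Cre and 10.6 CPM in Fto Tg. The lowest 3 libraries, WT, Fto Tg and f/f;Nestin-Cre, had overlapping intervals, as did both libraries of the Olig2-Cre pair. Fosb (ENSMUSG00000003545, chromosome 7, 19302696 to 19310051, minus strand), whose splice form ΔFosB accumulates with repeated activity, had 15.5, 19.7 and 9.29 CPM in the controls of the Nestin-Cre, Olig2-Cre and Fto pairs, and 11.02, 13.97 and 8.11 CPM in f/f;Nestin-Cre, f/f;Olig2-Cre and Fto Tg. In each pair Fosb was lower in the altered library, although the intervals of WT and Fto Tg overlapped. Junb (ENSMUSG00000052837, chromosome 8, 84974484 to 84978718, minus strand, a single exon) had 68.1, 53.1 and 30.4 CPM in the 3 controls. It had 9.15 CPM in f/f;Nestin-Cre, 51.0 CPM in f/f;Olig2-Cre and 34.1 CPM in Fto Tg. Within the Olig2-Cre and Fto pairs the Junb intervals overlapped, and f/f;Nestin-Cre lay below all other libraries. Overlap of CPM intervals does not mean that the interval of the ratio includes 0. That of the log2 ratio was 0.03 to 0.29 for Junb in the Fto pair and -0.34 to -0.01 for Fos in the Olig2-Cre pair.

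**Figure D1:**
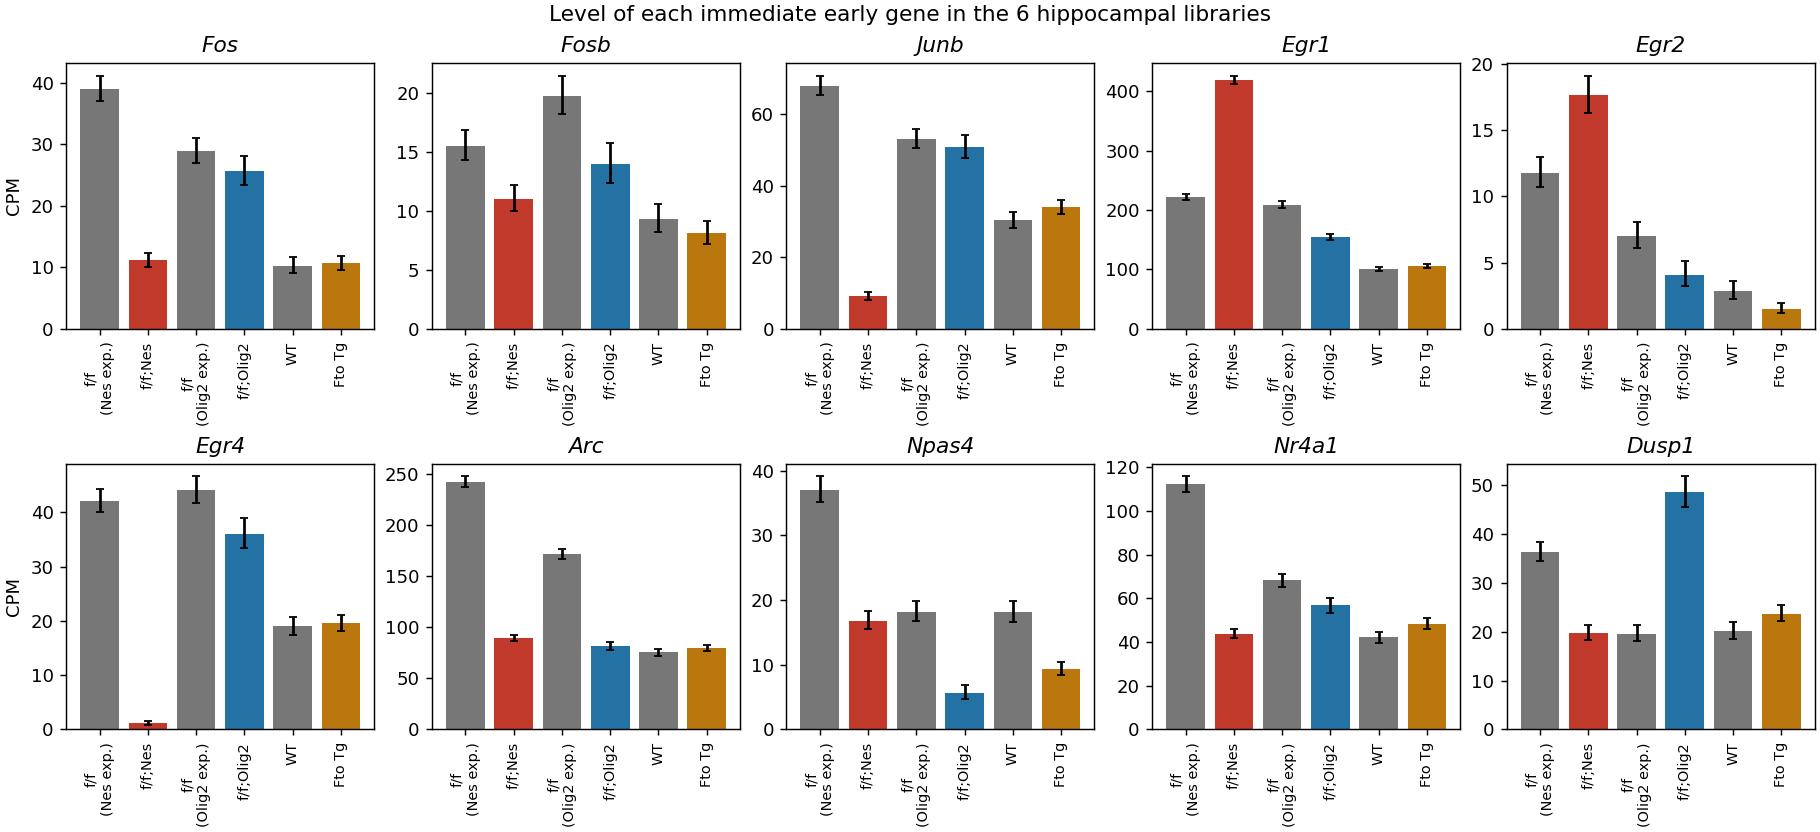
Level of the 10 genes in CPM (linear axes from 0, one panel per gene) in the 6 libraries, with controls in gray, f/f;Nestin-Cre (f/f;Nes on the axis) in red, f/f;Olig2-Cre (f/f;Olig2) in blue and Fto Tg in ochre, the f/f controls of the first and second pair being marked by the experiment on the axis. Bars are single libraries and error bars are 95% Wilson intervals of counting error. Among the controls alone, Arc had 243 CPM in the Nestin-Cre control and 75.7 CPM in WT.

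The Egr genes did not move as 1 group in the Nestin-Cre pair. Egr1 (ENSMUSG00000038418, chromosome 18, 34859823 to 34864984, plus strand) had 222, 209 and 101 CPM in the controls of the Nestin-Cre, Olig2-Cre and Fto pairs. It had 419 CPM in f/f;Nestin-Cre, above every other library, 155 CPM in f/f;Olig2-Cre and 106 CPM in Fto Tg. The last had an interval overlapping that of WT, and the interval of the log2 ratio was 0.003 to 0.150. Egr2 (ENSMUSG00000037868, chromosome 10, 67535475 to 67542188, plus strand) followed Egr1, with 11.8, 7.03 and 2.86 CPM in the controls, 17.6 CPM in f/f;Nestin-Cre, 4.08 CPM in f/f;Olig2-Cre and 1.52 CPM in Fto Tg. The Fto Tg value rested on 53 reads and was the lowest of the 6, and the intervals of f/f;Olig2-Cre and WT overlapped. Egr4 (ENSMUSG00000071341, chromosome 6, 85511121 to 85513589, minus strand) had 42.1, 44.1 and 19.0 CPM in the controls, 36.0 CPM in f/f;Olig2-Cre and 19.6 CPM in Fto Tg. In f/f;Nestin-Cre it was counted 41 times, or 1.18 CPM (0.870 to 1.60). Egr4 was thus lowest in the library in which Egr1 and Egr2 were highest.

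Npas4 (ENSMUSG00000045903, chromosome 19, 4984355 to 4990316, minus strand), which in neurons responds to calcium entry and to few other stimuli, was lower in the altered library of each pair. Its level was 37.1 CPM in the Nestin-Cre control, 18.2 CPM in the Olig2-Cre control and 18.1 CPM in WT. It was 16.8 CPM in f/f;Nestin-Cre, 5.64 CPM (105 reads, 4.66 to 6.83) in f/f;Olig2-Cre and 9.37 CPM in Fto Tg. By library total it was the only member of the 10 below all 3 controls in each altered library. The f/f;Nestin-Cre interval overlapped those of the lower 2 controls. Of all genes, 72.8% were below all 3 controls in f/f;Nestin-Cre, 29.7% in f/f;Olig2-Cre and 29.9% in Fto Tg. The share below in all 3 altered libraries was not computed, and Npas4 was chosen for its change, so nothing is read from this. With TMM scaling Npas4 had 25.1 CPM in f/f;Nestin-Cre, within the control range (34.3, 16.8 and 16.6 CPM). Nr4a1 (ENSMUSG00000023034, chromosome 15, 101254269 to 101274795, plus strand) had 112, 68.2 and 42.2 CPM in the controls of the Nestin-Cre, Olig2-Cre and Fto pairs, against 43.9 CPM in f/f;Nestin-Cre, 56.9 CPM in f/f;Olig2-Cre and 48.5 CPM in Fto Tg. Each altered value of Nr4a1 lay within the range of the controls.

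Arc (ENSMUSG00000022602, chromosome 15, 74669083 to 74672570, minus strand), which regulates the removal of AMPA receptors from synapses, had 243 CPM in the Nestin-Cre control and 172 CPM in the Olig2-Cre control. The other 4 libraries lay close together, with 89.6 CPM in f/f;Nestin-Cre, 81.7 CPM in f/f;Olig2-Cre, 79.4 CPM in Fto Tg and 75.7 CPM in WT. The altered libraries thus lay within the control range, whose lower end was WT. Dusp1 (ENSMUSG00000024190, chromosome 17, 26505590 to 26562128, minus strand), a feedback inhibitor of the pathway, departed from the other genes. It was highest in f/f;Olig2-Cre, with 48.5 CPM (45.4 to 51.7), and had 36.3 CPM in the Nestin-Cre control. The other 4 libraries had 23.7 CPM in Fto Tg, 20.1 CPM in WT, 19.8 CPM in f/f;Nestin-Cre and 19.6 CPM in the Olig2-Cre control, the last 3 with overlapping intervals.

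Levels of different genes were compared per kilobase of exon (RPKM, CPM divided by the union of exons in kilobases). In the Nestin-Cre control, Arc was the most abundant with 79.4 RPKM, followed by Egr1 with 49.4 RPKM, Nr4a1 with 32.0 RPKM and Junb with 29.6 RPKM. Egr2 and Fosb were the least abundant there, with 3.47 and 2.48 RPKM. In WT the order began likewise with Arc (24.8 RPKM) and Egr1 (22.5 RPKM) and ended with Fosb (1.49 RPKM) and Egr2 (0.841 RPKM).

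The spread between control libraries was considered next, because these animals carried neither Cre nor transgene. The SD of log2 CPM over the 3 controls was at least 0.5 for all 10 genes, a spread reached by 4.03% of all genes tested. Its median was 0.66 over the 10 genes and 0.14 over all genes, of which 90% lay below 0.35. Egr2 had the widest spread (SD 1.03, a 4.12-fold range), followed by Fos (1.01, 3.80-fold) and Arc (0.86, 3.21-fold), and Dusp1 had the narrowest (0.50, 1.85-fold). Since spread between controls was part of the choice of the genes, nothing is read from these counts. The Nestin-Cre control exceeded WT by at least 1.5-fold for 10 of the 10 genes (4.65% of all genes did so), and the Olig2-Cre control exceeded WT for 8 of 10 (2.72% of all genes), the exceptions being Npas4 and Dusp1. Between both f/f libraries, the Nestin-Cre control was higher by at least 1.5-fold for 4 genes (3.96% of all genes), Egr2, Npas4, Nr4a1 and Dusp1. The order Nestin-Cre control, Olig2-Cre control, WT, from high to low, held for 7 of the 10 genes (20.3% of all genes). Without WT the median SD was 0.33, and without one or the other f/f library it was 0.76 and 0.82, so that the spread rested largely on the low WT library. The Nestin-Cre and Olig2-Cre controls shared the f/f genotype and differed by experiment, whereas for WT genotype and experiment cannot be told apart.

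**Figure D2:**
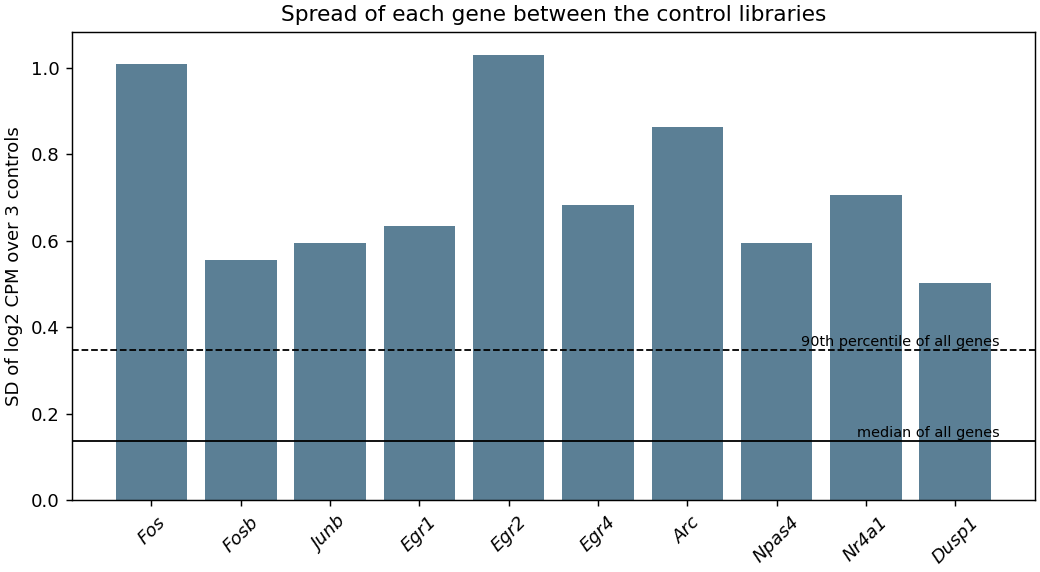
SD of log2 CPM over the 3 control libraries for each of the 10 genes (bars, linear axis from 0), with the median of all 14539 genes tested (solid line, 0.14) and their 90th percentile (dashed line, 0.35). All 10 bars are above the dashed line, from 0.50 for Dusp1 to 1.03 for Egr2.

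To describe the change with deletion of Prrc2a in neural progenitors, the Nestin-Cre pair was compared, with 0.5 added to each count before the log2 ratio was taken. At least 1.5-fold lower in f/f;Nestin-Cre were 7 of the 10 genes, Fos, Junb, Egr4, Arc, Npas4, Nr4a1 and Dusp1, and 1 was at least 1.5-fold higher, Egr1. Of all genes tested, 55.9% were lower and 9.37% higher by this measure, and because the genes were chosen with these values known, nothing is read from the counts in this or the other pairs. The median log2 ratio was -1.25 for the 10 genes and -0.73 for all genes. Egr4 had the largest difference, 35.3-fold lower (log2 ratio -5.14, -5.64 to -4.71), followed by Junb, 7.43-fold lower (-2.89). Fos was 3.50-fold lower (-1.81), Arc 2.71-fold (-1.44), Nr4a1 2.56-fold (-1.35), Npas4 2.20-fold (-1.14) and Dusp1 1.84-fold (-0.88). Egr1 was 1.89-fold higher (0.92, 0.88 to 0.96). Fosb (log2 ratio -0.49) and Egr2 (0.58) were the genes nearest to the threshold on its inner side, and Dusp1 was the nearest on its outer side.

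The shift of all genes in this pair bears on these ratios. TMM scaling placed the median of all genes at -0.04, and the ratios then became -4.46 for Egr4, -2.21 for Junb, -1.12 for Fos, -0.75 for Arc, -0.67 for Nr4a1, -0.45 for Npas4, -0.19 for Dusp1, 1.60 for Egr1 and 1.27 for Egr2. Fosb changed direction, from -0.49 to 0.19. Base composition moved with the ratios as well. The GC content, taken from the longest transcript of each gene, was 68.2% for Egr4 and 62.6% for Junb. In this pair the median log2 ratio was -3.21 for the 54 genes between 65% and 70% GC. It was -1.84 for the 588 genes between 60% and 65%. Egr1, with 57.3% GC and a log2 ratio of 0.92, belonged to the 2608 genes with 55% to 60% GC, whose median was -1.36. With GC content and length adjusted for, Egr4 was at -2.13, Junb at -0.79, Fos at -0.78, Nr4a1 at -0.01, Egr1 at 2.23 and Egr2 at 1.48, and Fosb (0.59), Arc (0.15), Npas4 (0.03) and Dusp1 (0.21) changed direction. Under every scaling tried, Egr4, Junb and Fos were lower and Egr1 and Egr2 higher in f/f;Nestin-Cre. In CPM by library total, f/f;Nestin-Cre was below all 3 controls for Junb, Egr4 and Npas4 and above for Egr1 and Egr2. The other 5 genes lay within the control range. Of all genes, 72.8% were below and 17.6% above all 3 controls.

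**Figure D3:**
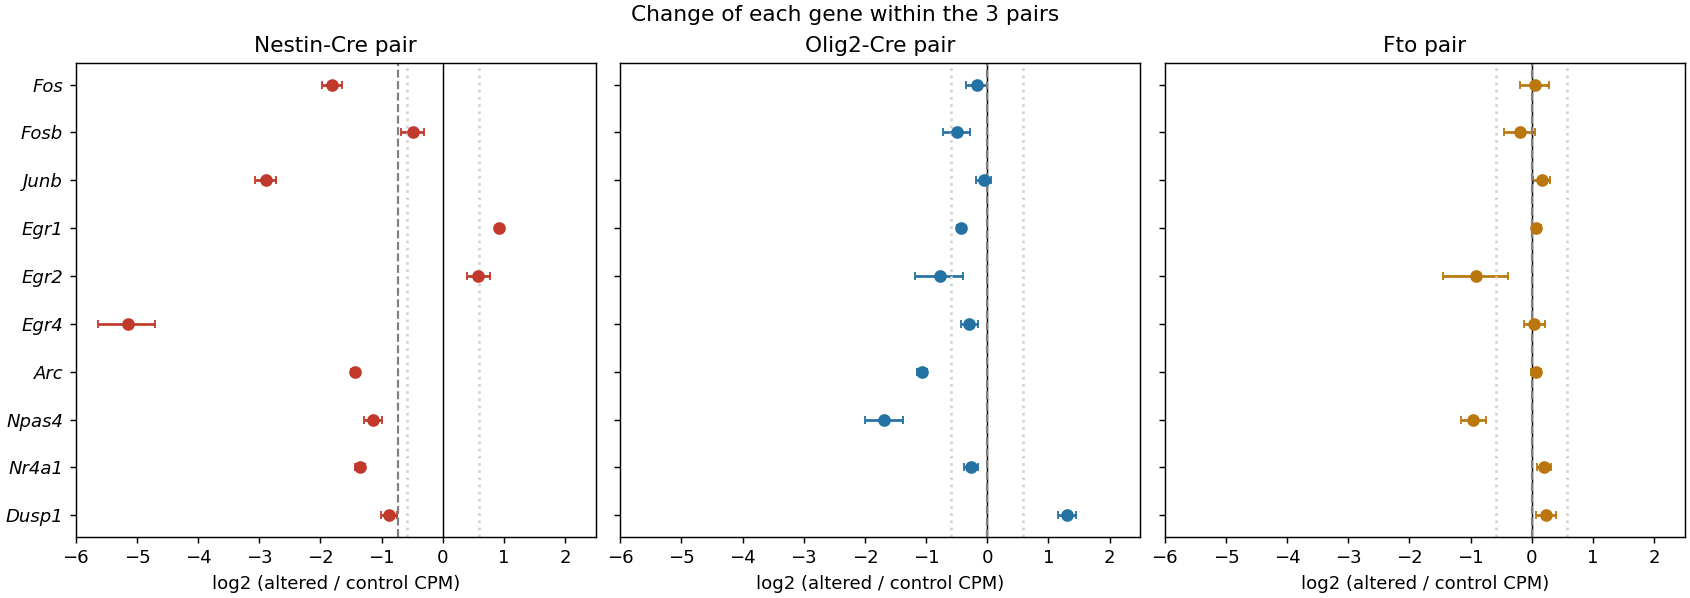
Log2 ratio of altered to control CPM for each gene in the 3 pairs (horizontal axis, same scale in each panel), with 95% exact intervals of counting error. The solid line marks 0, dotted lines mark 1.5-fold and the dashed line marks the median of all genes, which is -0.73 in the Nestin-Cre pair and 0.00 in the others. Egr4 and Junb lie far to the left in the first panel, Npas4 is left of the lower dotted line in all 3, and Dusp1 is to the right in the second.

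In the Olig2-Cre pair, which addressed deletion in the oligodendroglial lineage, Npas4, Arc and Egr2 were at least 1.5-fold lower with Olig2-Cre and Dusp1 was at least 1.5-fold higher. These were 3 and 1 of the 10 genes, against 3.87% lower and 2.5% higher among all genes (8.01% and 5.86% when genes were required to have 10 counts over the pair), and Npas4, Arc and Dusp1 were chosen for this difference. The median log2 ratio was -0.36 for the 10 genes and 0.00 for all genes. Npas4 was 3.21-fold lower (log2 ratio -1.68, -2.01 to -1.38), Arc 2.10-fold (-1.07, -1.16 to -0.99) and Egr2 1.71-fold (-0.78, -1.18 to -0.40). Dusp1 was 2.47-fold higher (1.31, 1.15 to 1.46). The other 6 genes had log2 ratios from -0.50 for Fosb to -0.06 for Junb. Against the mean of the 3 controls the median was -0.07, and Fos (0.18), Junb (0.09) and Egr4 (0.14) turned positive, while Npas4 (-2.02), Arc (-0.84) and Dusp1 (0.996) kept their direction. With TMM scaling, DESeq2 size factors, totals without mitochondrial genes, or adjustment for GC content and length, the log2 ratio of Npas4 was -1.75 to -1.66, that of Arc -1.19 to -1.05 and that of Dusp1 1.22 to 1.33. The f/f;Olig2-Cre library was below all 3 controls for 1 gene, Npas4, and above all 3 for 1 gene, Dusp1, while the shares of all genes were 29.7% and 30%. Arc with 81.7 CPM lay within the control range because WT had 75.7 CPM.

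In the Fto pair, which addressed an excess of the m6A eraser, Npas4 and Egr2 were at least 1.5-fold lower in Fto Tg and 0 genes were at least 1.5-fold higher. Among all genes 4.4% were lower and 2.04% higher (8.42% and 5.82% when genes were required to have 10 counts over the pair). Npas4 was 1.93-fold lower (log2 ratio -0.95, -1.16 to -0.74) and Egr2 1.88-fold (-0.91, -1.45 to -0.38, on 53 and 72 reads). The other 8 genes had log2 ratios from -0.20 for Fosb to 0.23 for Dusp1, and the median over the 10 genes was 0.06, against 0.00 for all genes. Fto Tg was below all 3 controls for 3 genes, Fosb, Egr2 and Npas4, and above for 0, with 29.9% and 29.7% of all genes. With the mean of the 3 controls in place of WT, the median became -0.77 and 7 genes were at least 1.5-fold lower. WT had the lowest level of the controls for 9 of the 10 genes, a count whose share of all genes was not computed. Spread between controls was part of the choice of the genes, so nothing is read from this count. For Npas4 the margin was narrow (18.1 CPM in WT and 18.2 CPM in the Olig2-Cre control). The ratios of Npas4 in the 3 pairs, -1.14, -1.68 and -0.95, rest on separate control libraries. Npas4 was chosen for its change, however, so nothing is read from their shared direction. In the Nestin-Cre pair the median of all genes was -0.73. There the ratio of Npas4 was -0.45 with TMM scaling and 0.03 after adjustment for GC content and length.

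**Figure D4:**
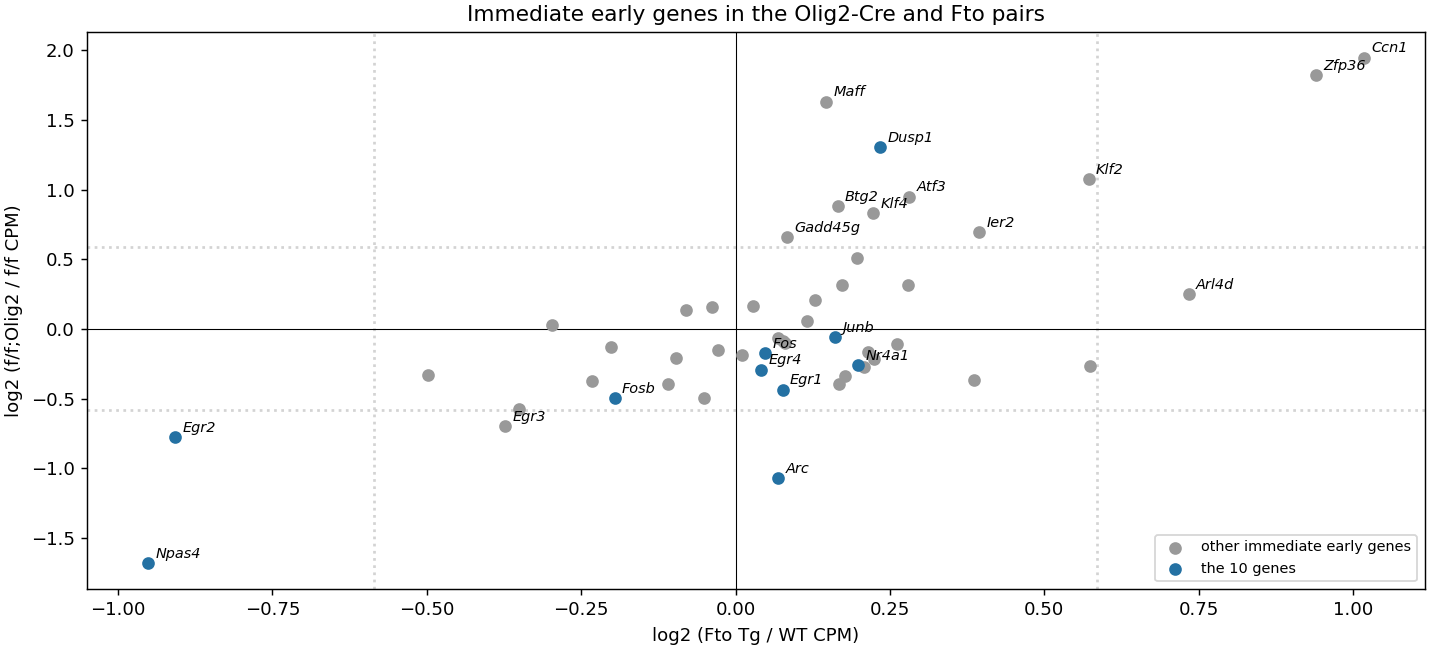
Log2 ratio in the Olig2-Cre pair (vertical) against the log2 ratio in the Fto pair (horizontal) for the 10 genes (blue) and 40 other immediate early genes (gray), 1 point per gene. Dotted lines mark 1.5-fold. Npas4 and Egr2 lie at the lower left, Arc is low only on the vertical axis, and Dusp1 lies at the upper middle beside Maff.

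The co-variation of the genes was described with the correlation of log2 CPM between genes over libraries. Over the 6 libraries the median Pearson's r of the 45 gene pairs was 0.45, ranging from -0.59 for Egr1 and Egr4 to 0.98 for Junb and Egr4, and 37 pairs were above 0. The median over all pairs of genes tested was 0.48, with the f/f;Nestin-Cre library included. Without that library the median over the 10 genes was 0.84, 44 of 45 pairs were above 0, and the median over all pairs of genes was 0.00. Over these 5 libraries, Fos, Junb, Egr1, Egr2, Egr4 and Nr4a1 had median correlations of 0.88 to 0.92 with the other 9 genes, whereas Npas4 (0.36) and Dusp1 (0.32) had the lowest, and Npas4 with Dusp1 was the single pair below 0 (-0.31). The points are 6 libraries, 1 per group, which fall into 3 pairs by experiment. Co-variation was used to choose the genes, so these values are a description only. By library, the Nestin-Cre control was highest for 5 genes, f/f;Nestin-Cre and the Olig2-Cre control for 2 each and f/f;Olig2-Cre for 1. WT was lowest for 4 genes, f/f;Nestin-Cre and Fto Tg for 2 each, and the Olig2-Cre control and f/f;Olig2-Cre for 1 each. The matching shares of all genes were not computed, and nothing is read from these counts.

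**Figure D5:**
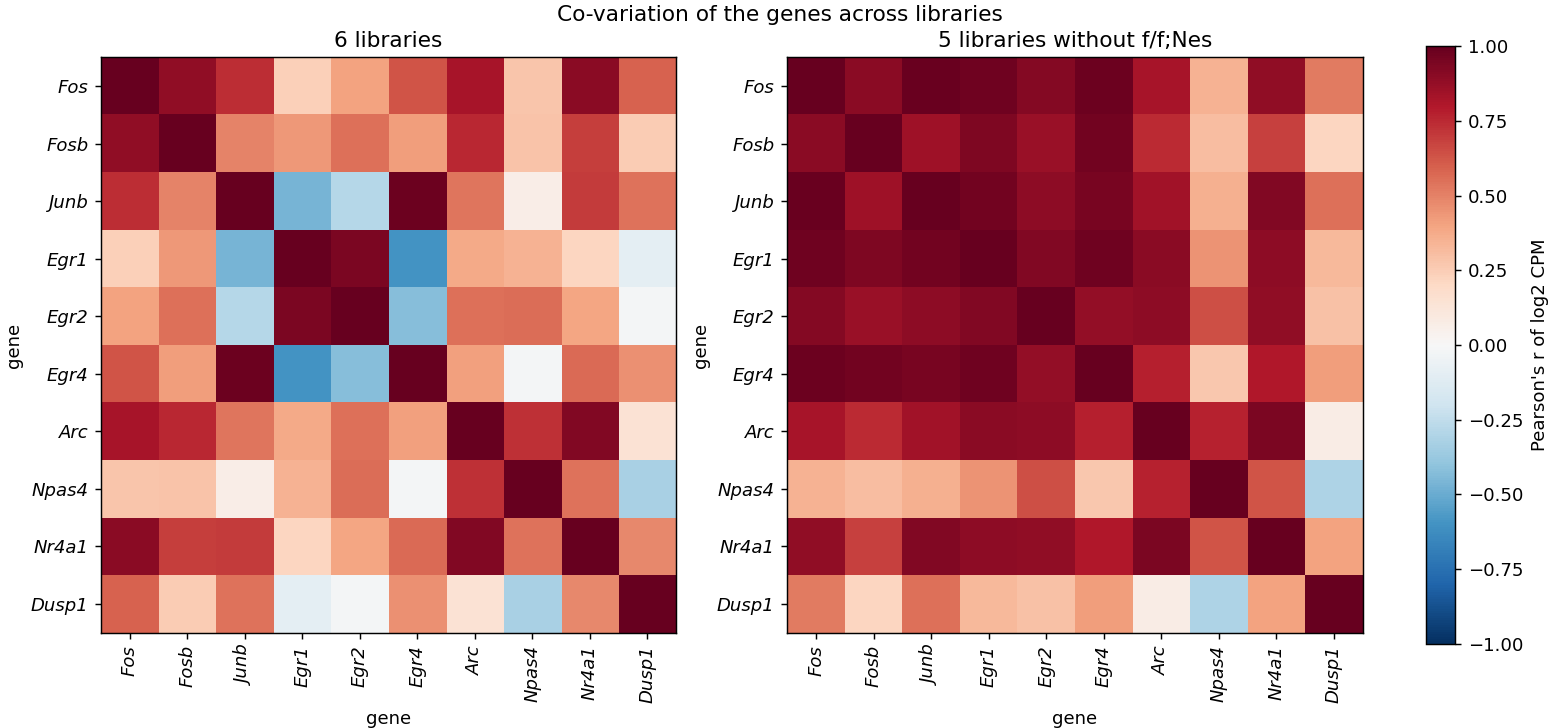
Pearson's r of log2 CPM between each pair of the 10 genes, over 6 libraries (left) and over the 5 libraries without f/f;Nestin-Cre (right), from -1 (blue) to 1 (red). On the left Egr1 and Egr2 are blue against Junb and Egr4, and on the right 44 of 45 pairs are above 0, with the paler rows belonging to Npas4 and Dusp1.

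The genes whose pattern was most like the mean of the 10 were sought among 7550 genes with a mean of at least 5 CPM and an SD of at least 0.3 on the log2 scale. Over the 6 libraries these were Rpl35 (r = 0.97), Mafk (0.94), Gm16211, Fgd1, Rai1, Chrm4, Hdac4, Zscan20, Elmsan1 and Mpc1 (0.91). Rpl35, which encodes a ribosomal protein of a family with many processed pseudogenes, so that its unique reads are uncertain, had 11.2, 7.61 and 4.84 CPM in the controls of the Nestin-Cre, Olig2-Cre and Fto pairs and 4.49, 6.61 and 5.22 CPM in the altered libraries. Mafk encodes a small Maf factor of the bZIP class. Of 40 other immediate early genes, Sik1 and Gadd45b stood nearest, at ranks 55 and 89, and were named after their ranks were seen. Others stood far down, such as Ptgs2 (rank 7198), Nr4a2 (6344) and Homer1 (6114), and some did not pass the limits. Without f/f;Nestin-Cre, 984 genes passed the same limits, and the nearest were Prdm11, Lgi4, Gse1, Eif4ebp2, Gadd45b, Zfhx2, Unc13d, Dvl3, Igf2 and Spen (r = 0.98 or above), none of them among the 10 genes found over 6 libraries. Over these 5 libraries Gadd45b, a growth arrest gene induced by activity, was at rank 5, the clock gene Per1 at rank 11 and Sik1 at rank 148. Homer1 was at rank 667 and Ptgs2 at rank 966, and these genes too were named after their ranks were seen. With TMM scaling over 6 libraries 4 of the 10 nearest genes were shared, so the list depended on scaling as well as on that library.

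Other immediate early genes were then examined in a list of 40. In the Olig2-Cre pair, 9 of 40 were at least 1.5-fold higher and 1 lower (2.5% and 3.87% of all genes), and the median log2 ratio was -0.07. The 9 are named here after their values were seen. Zfp36, which destabilises AU-rich mRNAs, had 4.31 CPM in f/f and 15.3 CPM with Olig2-Cre. Klf2, a zinc finger factor also of endothelium, had 14.4 and 30.3 CPM, and Ier2 had 6.20 and 10.04 CPM. Ccn1 (3.93 and 15.2 CPM), Maff (1.52 and 4.73 CPM), Atf3 (1.14 and 2.20 CPM), Btg2 (22.6 and 41.6 CPM), Klf4 (9.34 and 16.6 CPM) and Gadd45g (14.8 and 23.5 CPM) made up the rest. Egr3, the nearest relative of Egr2, was the gene that was lower (37.7 and 23.3 CPM). In the Fto pair 3 of 40 were higher, Zfp36 (3.21 and 6.19 CPM), Arl4d (log2 ratio 0.73) and Ccn1 (4.21 and 8.54 CPM), and 0 were lower. Of all genes, 2.04% were higher and 4.4% lower in that pair. The median of the 40 was 0.14. In the Nestin-Cre pair the median was -1.03 (all genes -0.73), 26 of 40 were lower, against 55.9% of all genes, and 1 was higher, Nr4a2, a relative of Nr4a1 (88.9 and 182 CPM).

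The genes around this response were described by counts of genes at least 1.5-fold lower or higher, to be read in the Nestin-Cre pair against the 55.9% and 9.37% of all genes, and genes named for passing that threshold were picked after their values were seen. Of 18 delayed activity genes, which follow the immediate early factors, 1 was lower in the Olig2-Cre pair (Inhba, 5.68 and 3.60 CPM) and 1 higher (Cort, 2.41 and 4.67 CPM). In the Fto pair 1 was lower (Pcsk1, 23.7 and 12.5 CPM) and 2 were higher (Pdyn, 6.67 and 12.2 CPM, and Cort, 3.49 and 5.88 CPM), and in the Nestin-Cre pair 9 were lower, among them Vgf (201 and 28.5 CPM), and 4 higher. Bdnf, a growth factor induced by activity, had 55.4 and 50.4 CPM in the Olig2-Cre pair and a log2 ratio of 0.25 in the Fto pair. Of 26 upstream kinases and factors, the S6 kinase Rps6ka3 alone was lower in the Olig2-Cre pair (48.1 and 30.1 CPM), Rps6ka3 and Mef2c were lower in the Fto pair, and 0 were higher in either. In the Nestin-Cre pair 7 of 26 were lower, including the MAP kinase kinase Map2k1 (233 and 58.3 CPM), and 3 were higher, including the coactivator Crebbp (70.7 and 168 CPM). Of 7 other MAP kinase phosphatases tested, 0 were lower or higher in the Olig2-Cre and Fto pairs and 5 were lower in the Nestin-Cre pair. Dusp6, which acts on ERK, had 61.3 and 54.7 CPM in the Olig2-Cre pair, where Dusp1 had 19.6 and 48.5 CPM. Among 15 dimer and family partners, Egr3 alone was lower in the Olig2-Cre pair, 0 changed past the threshold in the Fto pair, and 7 were lower in the Nestin-Cre pair, including Jund (95.1 and 14.8 CPM), the AP-1 partner with 67.1% GC.

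Lists of stress, hormone and clock genes and of cell type markers were described in the same way, because many of the 10 genes also respond to stimuli other than synaptic activity. Of 12 heat shock and stress genes and 16 clock genes, 0 were past 1.5-fold in the Olig2-Cre and Fto pairs, while 3 and 7 were lower in the Nestin-Cre pair (25.0% and 43.8%, below the 55.9% of all genes) and 1, Bag3, was higher (8.14 and 19.2 CPM). Of 14 genes of the glucocorticoid response, Nfkbia was higher in the Olig2-Cre pair (38.8 and 60.8 CPM) and in the Fto pair (24.5 and 39.4 CPM), and 8 were lower in the Nestin-Cre pair, including Mt2 (252 and 11.1 CPM). Neuronal markers were not past the threshold in the Olig2-Cre and Fto pairs (0 of 8). Of the dentate granule cell markers C1ql2 was higher in both (38.9 and 59.8 CPM, 31.0 and 50.2 CPM).

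Markers of cells outside the neurons also differed within the pairs. In the Olig2-Cre pair, where Dusp1, Zfp36 and Klf2 were higher, the 4 endothelial markers summed to 222 CPM in f/f and 283 CPM with Olig2-Cre, with 0 of 4 past 1.5-fold, and the 4 choroid plexus markers summed to 2128 and 3340 CPM, with Ttr higher (2014 and 3206 CPM). Blood genes summed to 10.4 and 7.47 CPM there, microglial markers to 259 and 267 CPM, and the astrocyte markers to 1207 and 1473 CPM, with Gfap higher (359 and 593 CPM). In the Fto pair, where Dusp1 had a log2 ratio of 0.23, the endothelial markers summed to 194 CPM in WT and 243 CPM in Fto Tg. Of these Cldn5 was past 1.5-fold (22.3 and 37.7 CPM). In the same pair, where Npas4 and Egr2 were lower, all 4 choroid plexus markers were lower, and their sum was 1606 CPM in WT and 677 CPM in Fto Tg. Over the 3 controls this sum was 2820, 2128 and 1606 CPM, most of it from Ttr (2710, 2014 and 1529 CPM). Folr1 and Kcne2 had the same order, but Kl did not (76.3, 85.4 and 59.7 CPM). The order of the sum was shared by 7 of the 10 genes, not by Fosb, Egr4 or Dusp1, and by 20.3% of all genes. In the Nestin-Cre pair the choroid plexus sum was 2820 and 257 CPM, and the oligodendrocyte markers summed to 7253 and 4840 CPM. None of these markers was at 0 in any library. The part of these cells in the levels of the 10 genes was not tested.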

How the data were processed

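RNA-seq of hippocampal mRNA (TRIzol extraction, poly(A) selection with Dynabeads, TruSeq libraries) was available for 6 libraries, 1 per group. The authors trimmed reads with Cutadapt and Trimmomatic, aligned them to mm10 with TopHat2 (2.0.9 per the submitters' processing notes), kept unique alignments, and counted reads per Ensembl gene with HTSeq 0.6 in union mode without strand. The deposited values are raw counts per gene, whole numbers without normalization. Reads shared with near-identical copies or overlapping genes were lost, and without strand a gene and its antisense partner are not separated. Paired-end reads are described in the methods but not stated in the labels.

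Counts were divided by the library total (CPM). Log2 ratios were taken with 0.5 added to each count, for 14539 genes with a mean of at least 1 CPM over the 6 libraries, and a gene was called lower or higher at 1.5-fold, without a test, since 1 library per group leaves no replicate check. The study called genes with the MARS read test of DEGseq (false discovery rate 0.001 and 1.2-fold). Its formulas were programmed here and used as an alternative, as were TMM scaling (edgeR 4.0.16 in R 4.3.3), DESeq2 1.42.0 size factors, totals without mitochondrial genes, adjustment for GC content and exon length (GENCODE M21, GRCm38, known for 99.0% of genes tested), the mean of the 3 controls, folds of 1.2 and 2, 5 added counts, a minimum of 10 counts over the pair in place of 1 CPM, and each library left out of the control spread and the correlations. Calculations used numpy 2.4.6, scipy 1.17.1, pandas 2.3.3 and matplotlib 3.10.9 (Python 3.11.15), and the ratio step was tested on simulated data. Symbols were found for 95.0% of identifiers. Groups followed the genotype labels, and pairs the experiment named in the titles, which call both f/f controls WT.

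The 10 genes and the 18 other lists were chosen with earlier results of these data known. Genes named were the 10 genes, Prrc2a and Fto, the 4 genes per list with the widest range of log2 CPM (mean of at least 5 CPM), from which examples are given, the 10 genes most correlated with the mean of the 10 (over 6 libraries, and over 5 without f/f;Nestin-Cre), and genes picked after their values were seen where the text says so. Promoter sequences came from RefSeq (GRCm38.p6), and the motifs were searched in 300 bases on both strands.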

Additional observations from a re-analysis of the deposited data

Results flagged for a closer look

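Dusp1, the MAP kinase phosphatase among the 10 genes, moved in opposite directions in the Prrc2a pairs, past 1.5-fold in both. Its log2 ratio was -0.88 in the Nestin-Cre pair (36.3 CPM in f/f and 19.8 CPM in f/f;Nestin-Cre) and 1.31 in the Olig2-Cre pair (19.6 CPM in f/f and 48.5 CPM in f/f;Olig2-Cre). The difference between the pairs was not tested, since each group had 1 library. The f/f controls themselves differed 1.85-fold, and the first ratio became -0.19 with TMM scaling and 0.21 after adjustment for GC content and length, whereas the second stayed at 1.29 and 1.22.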

How the results depend on the processing

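Of the counts, medians, control spread and correlation recomputed under other settings, 64 values stayed within 1.5 times the count or within the spread, 19 moved and 1 reversed. In the Nestin-Cre pair, the number of the 10 genes at least 1.5-fold lower was 7 and became 3 with GC and length adjustment. The number higher was 1 and became 2 with TMM, DESeq2 size factors, totals without mitochondrial genes, the mean of the 3 controls, the 1.2-fold threshold or the read test, 3 with GC and length adjustment and 0 at 2-fold. The median log2 ratio of -1.25 became -0.56 with TMM, -0.53 with DESeq2 size factors, -0.55 with the mean of the 3 controls and 0.088 with GC and length adjustment, which centers the ratios and also turned Fosb (0.59), Arc (0.15), Npas4 (0.028) and Dusp1 (0.21) positive. In the Olig2-Cre pair, 6 genes instead of 3 were lower at 1.2-fold or by the read test. In the Fto pair, 7 genes instead of 2 were lower against the mean of the 3 controls (median -0.77), 0 at 2-fold and 1 by the read test. The read test compares libraries, not genotypes. Requiring 10 counts over the pair instead of a mean of 1 CPM raised the shares of all genes past 1.5-fold to 8.01% lower and 5.86% higher in the Olig2-Cre pair and to 8.42% and 5.82% in the Fto pair. Leaving out 1 control at a time gave a median SD over controls of 0.33 (without WT) to 0.82. Leaving out 1 library at a time gave a median correlation of 0.35 to 0.84, the highest without f/f;Nestin-Cre. Counting error limits Egr2 and Egr4 most, with 53 reads in Fto Tg and 41 in f/f;Nestin-Cre. The other causes were not tested. No paired analysis was possible because each comparison had 1 library on either side, and a fit over pairs that pools the different alterations was not run.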
